A study of Mus musculus with 5 samples.

Results

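The genes described here are the 10 genes of the MHC class II antigen presentation pathway: the classical chains H2-Aa, H2-Ab1, H2-Ea and H2-Eb1, the chaperone chains H2-DMa, H2-DMb2, H2-Oa and H2-Ob, the invariant chain Cd74 and the transactivator Ciita. They were found by their symbol in the platform annotation, which gave 25 probe sets of 45101 on the array, or 10 of 18193 named genes. Of the 25 probe sets, 22 carried 1 gene symbol and 3 carried several. Messenger RNA was measured by Affymetrix arrays in CD11b+ cells sorted on day 8 from subcutaneous Matrigel plugs, a gelled matrix that keeps injected cells in place. All mice were Balb/c SCID animals 7 to 12 weeks old with a transgenic T-cell receptor specific for the idiotype of MOPC315, a mouse myeloma line. SCID mice lack nearly all B cells and, apart from the transgenic ones, T cells, but keep natural killer cells. CD11b is carried by macrophages and by other myeloid cells. The tumoricidal group (3 arrays) came from plugs that held MOPC315. The control group (2 arrays), labelled non-tumoricidal, came from plugs with antigen-loss MOPC315. The labels call the arrays biological replicates and do not say how many mice gave each one.

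Class II molecules are surface pairs of an alpha and a beta chain that show peptides from endosomes to CD4+ T cells. The classical pairs in the mouse are I-A (H2-Aa with H2-Ab1) and I-E (H2-Ea with H2-Eb1). Their empty groove is first filled by the invariant chain, of which a fragment stays behind in the endosome. H2-DM removes that fragment and edits the peptides, and H2-DO inhibits H2-DM, mainly in B cells. Ciita is the coactivator on which transcription of the classical chains depends, with a part of differing size at the others, and interferon-gamma induces it in macrophages.

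Signals below are linear, scaled so that every array has the same median, and those under 4.79 were treated as unmeasured. The deposited array medians ran from 15.4 to 22.6. Arrays were split into 2 batches by their spike-in controls, a number set in advance, and not by the labels. Tumoricidal replicate 3 and control replicate 2 fell in batch B and the other 3 arrays in batch A. All 10 genes had higher signals in each tumoricidal array than in either control array, as did 13.3% of all probe sets tested. The chains of H2-DM differed most, by 4.12-fold (H2-DMa) and 4.80-fold (H2-DMb2), the classical chains by 1.57-fold to 2.60-fold, and the invariant chain by 1.53-fold. In sorted bulk cells, more cells of a type and more RNA per cell cannot be told apart.

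None of the 25 member probe sets passed limma at an adjusted p under 0.05 over all 41053 probe sets tested, where 0.0341% of all probe sets were called higher and 0.0171% lower. The lowest adjusted p among them was 0.0861, at 1 of the H2-DMa probe sets. At an unadjusted p under 0.05, 19 of the 25 were higher and 0 lower, against a background of 4.92% higher and 3.07% lower. The groups did not overlap, with tumoricidal arrays higher, at 23 of the 25, against the 13.3% of all probe sets. Another 7.6% of all were apart the other way, and 0 of the members. Among all probe sets above the median level, the share apart with tumoricidal arrays higher was 20.4%. The log2 difference exceeded 1 at 16 of the 25, against 3.63% of all. Its median was 1.34 over the member probe sets, of which several measure the same gene, 1.02 over the 10 genes and 0.09 over all probe sets tested. When the fit was limited to probe sets above the median level, limma called 9 members higher, against 0.945% of the probe sets in that fit. These were both H2-DMa probe sets, all 5 H2-DMb2 probe sets, H2-Oa and 1 Ciita probe set. H2-Oa passed that filter only through the tumoricidal arrays, since both its control signals lay below the median level of 21.5. With a trended and robust variance, limma called 6, all of them H2-DM probe sets, against 0.431% of all.

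**Figure D1:**
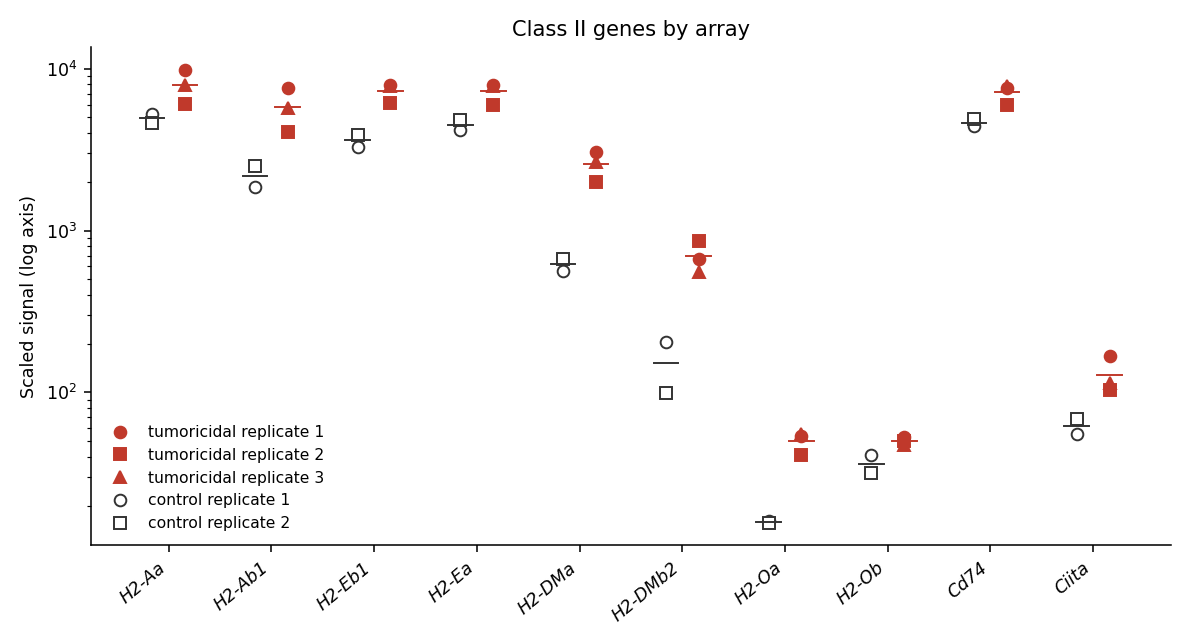
Scaled signal (log axis) of the probe set used for each of the 10 class II genes in 3 tumoricidal (filled) and 2 control (open) arrays, with horizontal lines at the group means. All tumoricidal points of a gene lie above both control points, with the widest gap at H2-DMa, H2-DMb2 and H2-Oa.

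The classical chains were among the brightest features of the arrays. The probe sets used for the 4 genes lay between the 99.4th and 99.9th percentile of mean level. H2-Aa, the I-A alpha chain, had signals of 9804, 6014 and 7866 in the 3 tumoricidal arrays, in replicate order, and of 5234 and 4617 in the 2 controls. Tumoricidal replicate 2 lay closest to the controls. The log2 difference was 0.65 (SE 0.30; adjusted p = 0.693, limma), with a 95% interval from -0.08 to 1.39.

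H2-Ab1, the I-A beta chain, had 7609, 4061 and 5679 in the tumoricidal arrays and 1865 and 2489 in the controls. It showed the largest difference of the classical chains, 1.38 (SE 0.35, limma adjusted p = 0.378). Its other 2 probe sets gave 1.38 and 1.45. The lowest tumoricidal array was well above the higher control array on all 3 probe sets of the gene.

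H2-Eb1, the I-E beta chain, had 7916, 6159 and 7845 in the tumoricidal arrays and 3286 and 3912 in the controls, and the group means differed by 1.02 on the log2 scale (SE 0.26, adjusted p = 0.375 by limma). H2-Ea, the I-E alpha chain, had 7943, 5967 and 7839 against 4172 and 4807, and the group means differed by 0.68 on the log2 scale (SE 0.26, adjusted p = 0.593 by limma). RefSeq lists H2-Ea as a transcribed pseudogene because the reference strain C57BL/6J cannot make this chain, whereas Balb/c mice carry a working copy. Its RNA was abundant here in both groups.

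The probe sets of 1 gene did not all give the same difference. For H2-Aa, the 3 brightest probe sets gave 0.65, 0.93 and 0.95, while the dim one, at the 81.7th percentile of mean level, gave 1.34. That dim probe set had 198, 234 and 193 in the tumoricidal arrays and 100 and 66.8 in the controls. For H2-Ea, a second probe set with 5329, 3723 and 5625 against 1823 and 2797 gave 1.09. The third H2-Ea probe set was near or below the lower limit on all arrays, between 1.93 and 6.55, with overlapping groups and a difference of 0.03 (SE 0.28). Probe sets whose names end in _s_at or _x_at, as all 4 of H2-Aa do, hold probes that can match related transcripts.

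The chains of H2-DM, which exchanges the invariant chain fragment for antigenic peptide, showed the largest differences among the 10 genes. H2-DMa had 3035, 2008 and 2664 in the tumoricidal arrays and 563 and 671 in the controls. Its means were 2569 ± 520 (SD, n = 3) and 617 ± 76.7 (SD, n = 2), a 4.12-fold ratio on the log2 scale of the fit. The log2 difference was 2.04 (SE 0.28; adjusted p = 0.140, limma), with a 95% interval from 1.34 to 2.74. The second H2-DMa probe set, with 177, 189.6 and 187 against 45.2 and 49.5, gave 1.96 (SE 0.22, limma adjusted p = 0.0861). The gap between the groups was larger than the spread within either group on both probe sets.

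H2-DMb2, a beta chain of H2-DM, had 671, 857 and 557 in the tumoricidal arrays and 204 and 99.7 in the controls. The log2 difference was 2.26 (SE 0.39; adjusted p = 0.206, limma), with a 95% interval from 1.29 to 3.24. It was 2.78 without control replicate 1 and 1.75 without control replicate 2. The 2 control arrays were far apart on this probe set, and the 3 tumoricidal arrays lay above both.

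The other H2-DMb2 probe sets were all on the same side. A second one gave 551, 673 and 257 against 111 and 57.7, a log2 difference of 2.51 (SE 0.52). The third gave 627, 226 and 291 against 76.5 and 65.8, a difference of 2.28 (SE 0.47). The brightest tumoricidal array was replicate 2 on the first 2 and replicate 1 on the third. Another pair of probe sets is annotated to both H2-DMb2 and its neighbour H2-DMb1, a near-copy, and cannot be assigned to either. Those 2 gave 2.23 and 2.22, the brighter one with 2539, 1316 and 2323 in the tumoricidal arrays and 365 and 489 in the controls. H2-DMb1 had no probe set of its own here.

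The H2-DO chains, which form the inhibitor of H2-DM, had much lower positions on the signal scale. H2-Oa had 53.9, 41.2 and 55.5 in the tumoricidal arrays and 16.2 and 15.7 in the controls. The log2 difference was 1.64 (SE 0.25; adjusted p = 0.169, limma), with a 95% interval from 1.01 to 2.27. With 16 added to each signal in place of the lower limit, it was 1.04. H2-Ob had 53.3, 49.8 and 47.5 against 40.9 and 31.7, a difference of 0.48 (SE 0.25, limma adjusted p = 0.751) whose 95% interval ran from -0.13 to 1.09. A second probe set, annotated to H2-Ob and Gm20506, lay between 3.7 and 9.94 on all arrays, with overlapping groups. The alpha chain of the pair thus had the clearer separation, and the difference between the 2 chains was not tested.

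The invariant chain Cd74 had 7625, 5974 and 7818 in the tumoricidal arrays and 4393 and 4855 in the controls. Its difference of 0.62 (log2, SE 0.25; adjusted p = 0.634, limma) was close to those of H2-Aa and H2-Ea, and its 95% interval ran from just below 0 to 1.24. Like the classical chains, it was at the top of the signal scale, at the 99.8th percentile.

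Ciita was measured by 3 probe sets. The one with the highest level had 167, 104 and 114 in the tumoricidal arrays and 55.4 and 68.4 in the controls, and the group means differed by 1.03 on the log2 scale (SE 0.31, adjusted p = 0.469 by limma). The second had 103 in tumoricidal replicates 1 and 2 and 74.3 in replicate 3, against 32.9 and 22.3, a difference of 1.77 (SE 0.30, limma adjusted p = 0.202). The third had 34.7, 28.6 and 54.7 against 22.0 and 27.6, a difference of 0.62 (SE 0.35). Groups did not overlap on any of the 3, but on the third the lowest tumoricidal array was only just above the higher control. Ciita has several promoters with their own first exons, and which of them the probe sets detect was not examined.

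**Figure D2:**
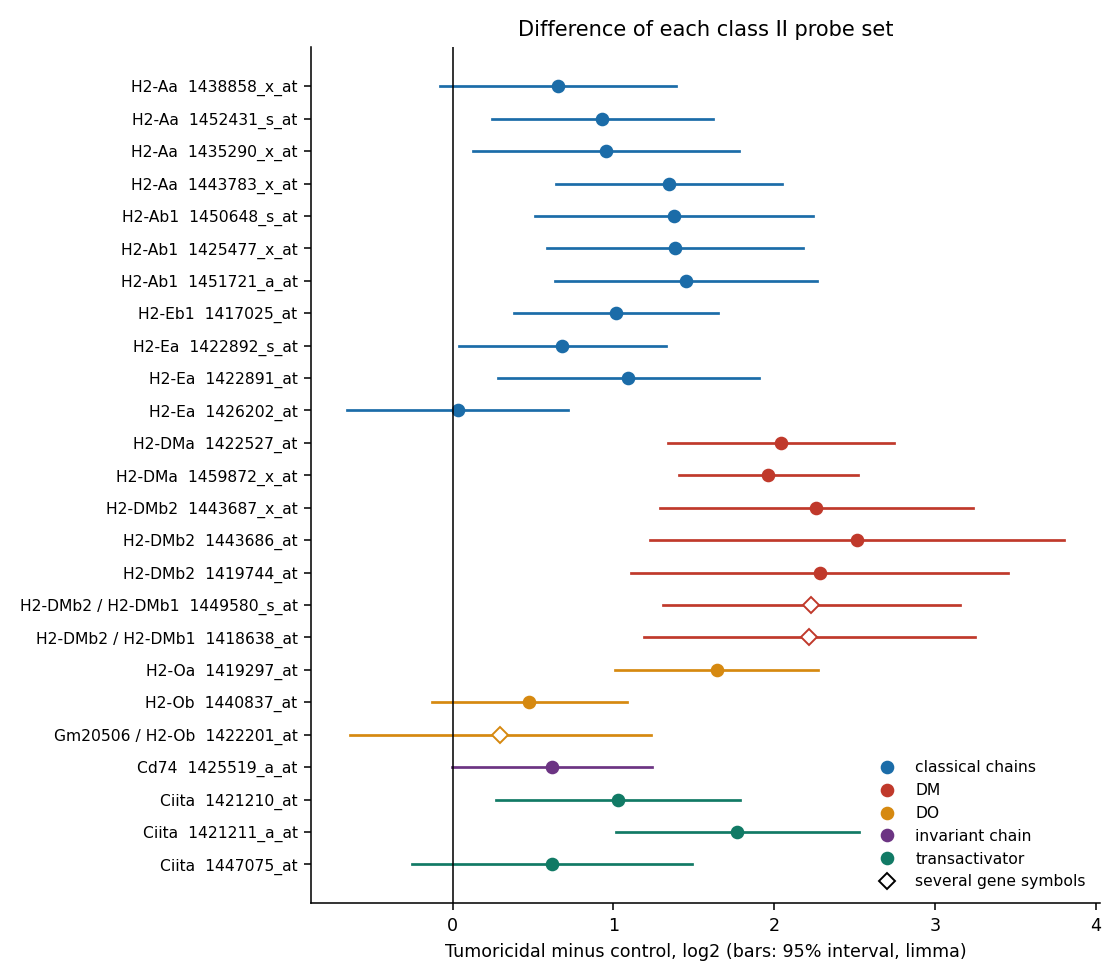
Log2 difference between tumoricidal and control arrays for each of the 25 class II probe sets, with the 95% interval of the limma fit and colours for the roles; open diamonds carry several gene symbols. All H2-DM probe sets lie between 1.96 and 2.51, right of every classical chain, and the 2 points nearest 0 are the H2-Ea probe set at the lower limit and the one shared by H2-Ob and Gm20506.

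The roles were then compared within arrays, where the scaling of an array cancels. Each role is the mean log2 signal of its genes, given relative to the control mean. The classical chains stood at 1.20, 0.60 and 1.003 in the tumoricidal arrays and at -0.09 and 0.09 in the controls. H2-DM stood at 2.27, 2.15 and 2.04 against 0.19 and -0.19. Tumoricidal replicate 2 was the lowest of its group for 8 of the 10 genes, including all 5 classical and invariant chain genes. H2-DMa shared this order, but for H2-DMb2 replicate 2 was the highest, so that the H2-DM mean was nearly level over the 3 arrays.

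H2-DM minus the classical chains was 1.07, 1.55 and 1.04 in the tumoricidal arrays and 0.28 and -0.28 in the controls. The groups did not overlap, and their difference of 1.22 compares with a spread between replicates of 0.33 (pooled SD). Batch A alone gave 1.03 and batch B alone 1.32. H2-DM minus H2-DO differed by 1.09, with 1.11, 1.23 and 0.94 against 0.09 and -0.09. The invariant chain lagged behind the classical chains by 0.32, with -0.47, -0.23 and -0.24 in the tumoricidal arrays and 0.01 and -0.01 in the controls.

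H2-DO minus the classical chains (0.13) and Ciita minus the classical chains (0.10) had overlapping groups. With 16 added to each signal, these 2 contrasts turned to -0.24 and -0.06, and the first was also -0.06 without control replicate 2. The Ciita contrast rests on the brightest Ciita probe set, with a log2 difference of 1.03. Other Ciita probe sets gave 1.77 and 0.62 and were not used in it, so it does not show that Ciita and the classical chains differed alike. No p is given for these contrasts, since an exact permutation test of 3 against 2 arrays cannot go below 0.1, one-sided. The roles also differed in position on the signal scale. The classical chains and Cd74 were above the 99th percentile, and H2-DMa and H2-DMb2 at percentiles 97.8 and 91.2. Ciita, H2-Ob and H2-Oa were at percentiles 76.2, 64.9 and 60.2. The part of signal level in the contrasts was not tested.

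**Figure D3:**
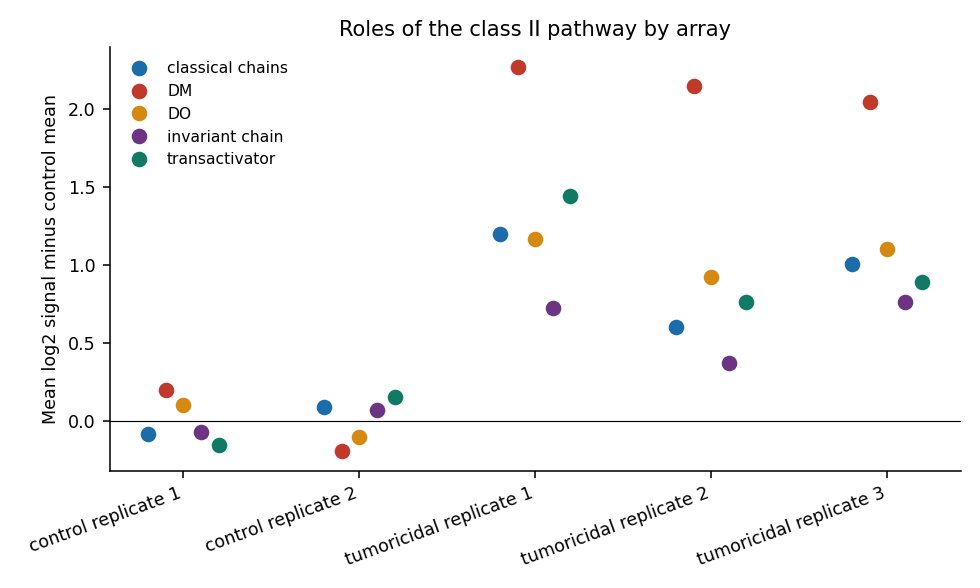
Mean log2 signal of the genes of each role, minus its mean over the control arrays, in each of the 5 arrays. H2-DM lies between 2.04 and 2.27 in the tumoricidal arrays, above all other roles, and the invariant chain is the lowest role there.

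Promoters of class II genes hold a conserved X box, bound by the RFX complex, and a Y box, bound by NF-Y, and Ciita docks on the proteins assembled there. RefSeq promoter windows of assembly GRCm38.p6 were used for 6 of the 10 genes. The search left out the chromosome that holds Cd74, so the Cd74 promoter was not examined. Stretches of 72 bases around the Y box are shown because 5 of these genes, H2-Aa, H2-Eb1, H2-Oa, H2-Ob and H2-DMb2, hold it; the H2-DMb1 stretch is added as the near-copy of H2-DMb2, with no difference measured. They come from the C57BL/6J reference, while the mice were Balb/c, which carry another class II haplotype. Capitals mark TGATTGG, the Y box, and GCAAC, a part of the X box.
H2-Aa (chr17:34287847-34287918, minus strand): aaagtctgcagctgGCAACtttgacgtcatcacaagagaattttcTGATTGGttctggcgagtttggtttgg
H2-Eb1 (chr17:34305761-34305832, plus strand): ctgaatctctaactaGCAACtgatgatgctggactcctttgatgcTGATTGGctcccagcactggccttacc
H2-Oa (chr17:34092289-34092360, plus strand): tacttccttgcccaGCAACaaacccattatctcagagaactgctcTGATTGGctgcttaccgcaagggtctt
H2-Ob (chr17:34238801-34238872, plus strand): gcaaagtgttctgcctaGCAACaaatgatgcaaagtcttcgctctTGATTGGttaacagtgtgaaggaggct
H2-DMb2 (chr17:34145112-34145183, plus strand): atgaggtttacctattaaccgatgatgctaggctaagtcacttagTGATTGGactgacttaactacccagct
H2-DMb1 (chr17:34153083-34153154, plus strand): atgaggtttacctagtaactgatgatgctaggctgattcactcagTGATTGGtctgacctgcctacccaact

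TGATTGG, on the strand of the gene, began 50 bases before the start of H2-Aa, 61 before H2-Eb1, 45 before H2-Oa, 59 before H2-Ob and 92 before H2-DMb2. Both strands of the 250 bases before each start were searched. The 7 letters, picked after the sequences were seen, occur in 7.23% of all 32851 promoter windows, and the longer CTGATTGG, found at H2-Aa, H2-Eb1 and H2-Oa and overlapping it, in 3.83%. GCAAC, also picked after the sequences were seen, occurs in 29.9% of windows. It lay 26 bases from the Y box at H2-Aa and H2-Oa, 25 at H2-Eb1 and 23 at H2-Ob. It also occurred in 1 H2-DMa window, on the opposite strand, 7 bases before the start. The longer X box letters CCTAGNNAC (3.37% of windows) were found at H2-Ob and H2-DMb1. Neither H2-DMa window held TGATTGG; the shorter ATTGG, which overlaps the longer Y box letters and occurs in 33.8% of windows, was in 1 of the 2. The H2-DMb2 and H2-DMb1 stretches matched at 62 of 72 bases. A gamma-activated site (TTCNNNGAA, 7.02% of windows) was found at H2-DMb2, and the interferon-stimulated element (2.98% of windows) in none of the windows used, which leave out Cd74. H2-Oa and H2-Ob, whose log2 differences were 1.64 and 0.48, both hold the Y box letters.

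Most members lie in 1 block of chromosome 17, in the RefSeq order H2-Oa, Brd2, H2-DMa, H2-DMb2, H2-DMb1, Psmb9, Tap1, Psmb8, Tap2, H2-Ob, H2-Ab1, H2-Aa, H2-Eb1, H2-Eb2 and H2-Ea. The log2 differences were not even along it. H2-Oa, H2-DMa and H2-DMb2 were at 1.64 to 2.26, and the class I peptide transporters and immunoproteasome subunits between H2-DMb1 and H2-Ob at 1.79 to 2.46. H2-Ob, directly next to them, was at 0.48 and the classical chains at 0.65 to 1.38. Brd2, a bromodomain protein gene of this block that is no part of antigen presentation, was at 0.39 (SE 0.23, limma adjusted p = 0.784). H2-Eb2, a beta chain gene beside H2-Eb1, had overlapping groups with signals of 39.4, 19.3 and 22.6 against 12.5 and 19.4.

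**Figure D4:**
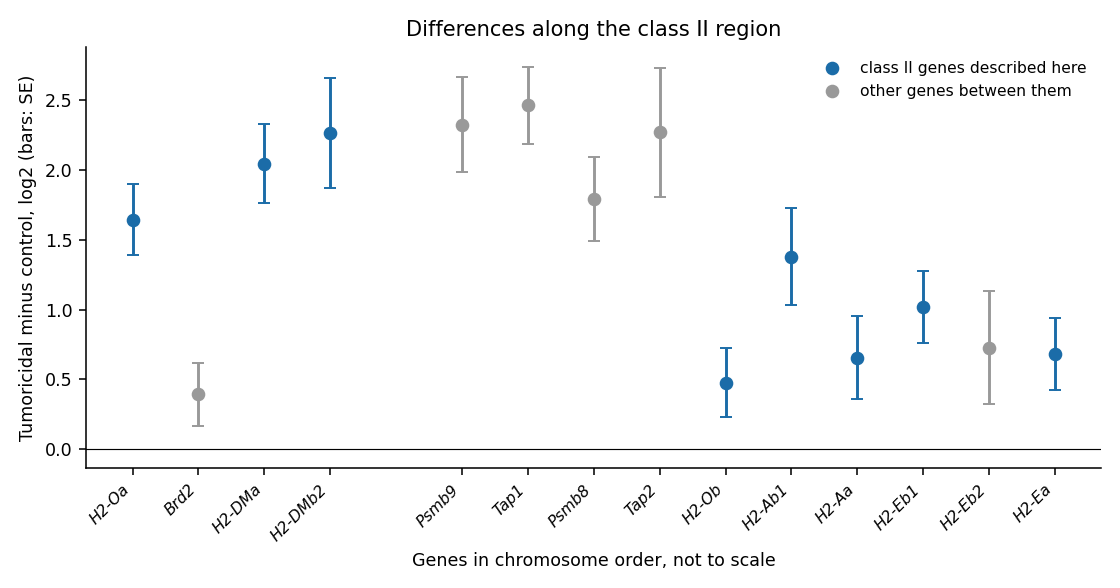
Log2 difference (points) with its standard error (bars) for 14 measured genes in their chromosome order; blue marks members and grey the other genes. Differences near or above 1.6 are at H2-Oa, at H2-DMa and H2-DMb2 and at Psmb9 to Tap2, with H2-Ob at 0.48 next to Tap2.

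Other genes of the pathway were counted from lists. In none of the 5 lists did a member pass limma's adjusted threshold in either direction (0 of 44 genes). Transcription partners of Ciita had a median log2 difference of 0.17 over 11 genes, against 0.09 over all probe sets. The RFX subunit Rfx5 stood at 0.86 (157, 184 and 158 against 99 and 84.8), but Rfxap at 0.14, Rfxank at 0.17, and the NF-Y subunits Nfya, Nfyb and Nfyc between -0.06 and 0.04. Nlrc5, the class I counterpart of Ciita, stood at 1.77 (limma adjusted p = 0.230) and the acetyltransferase Kat2b at 0.69. The groups were apart, tumoricidal higher, at 5 of the 11, against 13.3% of all probe sets. Nearly all genes of the 5 lists lie above the median level, where 20.4% of probe sets were apart this way.

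Regulators of Ciita had a median of 0.72 over 13 genes, of which 8 were apart with tumoricidal arrays higher and 1, Irf4, apart the other way, against 13.3% and 7.6% of all probe sets. Irf1, which acts at the interferon-responsive Ciita promoter, had 2554, 1874 and 4135 against 353 and 659, a log2 difference of 2.49 (limma adjusted p = 0.220). Socs1, an inhibitor of interferon-gamma signalling, stood at 3.53 (limma adjusted p = 0.0577) and the kinase Jak2 at 1.09 (limma adjusted p = 0.318). The receptor chain Ifngr1 was at -0.30 with overlapping groups. Ifng itself had 41.6, 84.7 and 23.3 in the tumoricidal arrays and 10.9 in control replicate 1, and was below the lower limit in control replicate 2. Cxcl9 and Gbp2, interferon-gamma targets outside the pathway, rose by 6.02 and 3.82 on the log2 scale (limma adjusted p = 0.0270 and 0.0481), but did not pass once the batch was added as a block (adjusted p = 0.145 for both) or with any single array left out (lowest adjusted p = 0.204).

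The list of endosomal proteases, which trim the invariant chain and antigens, also holds the reductase Ifi30 and the protease inhibitor Cst3. Its median was 0.29 over all 10 genes. Of these, 3 were apart with tumoricidal arrays higher, against 13.3% of all probe sets and 20.4% of those above the median level. The thiol reductase Ifi30 stood at 0.93 (limma adjusted p = 0.512), Ctsc at 0.48 and Ctsz at 0.47. Ctss, a protease that degrades the invariant chain, had 8200.1, 6239 and 8150.03 against 5652 and 6094, a log2 difference of 0.35 (SE 0.25). Among genes of surface turnover, March1, a ubiquitin ligase that removes class II from the surface, stood at 0.84 (limma adjusted p = 0.548), March8 at -0.16 and Cd83, which opposes March1, at -0.93 (SE 0.69). Cd83 signals were split by batch: 581 and 558 in tumoricidal replicates 1 and 2 and 1234 in control replicate 1, against 2178 and 2342 in the batch B arrays. The Cd83 difference was -1.58 without tumoricidal replicate 3 and -0.47 without control replicate 2, and that of March8 changed sign with the batch as a block (0.0093), without tumoricidal replicate 1 (0.09) and without control replicate 2 (0.34). Of the other class II region genes, 5 of 7 were apart with tumoricidal arrays higher, against 13.3% of all probe sets, among them Tap1 at 2.46, Psmb9 at 2.32 and Tap2 at 2.27 (lowest limma adjusted p = 0.0831).

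The 6 named genes with the array profile nearest to the mean member profile were Cd52, Pnp, Pstpip2, Abcc4, Rasal3 and Zyx, at Euclidean distances of 0.10 to 0.20 (log2 units over 5 arrays) among 9921 candidate genes. Cd52, a small glycoprotein of leukocytes, had 5652, 4460.05 and 4717 against 2189 and 2180.2, and Pnp, a purine salvage enzyme, 3630.2, 2944 and 3331 against 1359 and 1348. Their log2 differences lay between 1.06 and 1.28.

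Markers of several cell types, whether or not they carry class II, were set beside these values. Macrophage markers summed to 31539.9 to 47659 in the tumoricidal arrays and 28958 to 39063 in the controls, with 11 tested and none called. Csf1r and Lyz2 stood at 0.30 and 0.33, Fcgr1 at 0.51 and Aif1 at 1.14, and both groups had strong signals of these genes. Dendritic cell markers summed to 1368 to 1655 against 829 to 917, with 0 of 11 called. Itgax, which macrophages also express, made up much of this with 711, 578 and 784 against 189 and 179.9. The defining dendritic cell genes Flt3 and Zbtb46 had 20.03, 26.0 and 23.5 against 32.0 and 19.5, and 17.4, 13.0 and 23.4 against 23.9 and 14.2, with overlapping groups. Cd209a stood at -0.76 and Siglech at -1.66, while Batf3 stood at 1.49, Klrd1 at 1.35 and Itgae at 1.20. Siglech was below the lower limit in tumoricidal replicates 1 and 2, and with 16 added to each signal it stood at -0.69. The list had a median of 0.58. Groups were apart with tumoricidal arrays higher at 4 of the 11 and lower at 1, against 13.3% and 7.6% of all probe sets.

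B cell markers summed to 186 to 379.6 against 210.03 to 225, with 0 of 7 called. Cd22 made up the largest part of the sum with 140, 124 and 299 against 101 and 143, and Cd79b had 50.6, 13.1 and 56.2 against 66.8 and 59.1. Cd79a, Ms4a1, Pax5, Blk and Fcer2a each had at least 1 array below the lower limit with a highest signal of 15.98, at Pax5. Plasma cell and myeloma markers summed to 3599.6 to 4883 against 5635 to 6317, with 0 of 9 called. Groups were apart with tumoricidal arrays lower at 5 of them, among which Pou2af1 stood at -3.24 and Jchain at -2.80, and higher at 2, Xbp1 at 0.30 and Prdm1 at 0.66. Of all probe sets, 7.6% were apart with tumoricidal arrays lower and 13.3% higher. Tnfrsf17, also among the 5, was below the lower limit in every tumoricidal array. Xbp1, with 3132, 3098 and 3297 against 2456 and 2721, was the brightest of the list; its difference was -0.04 after quantile normalization. T-cell markers summed to 153, 1234 and 147 in the tumoricidal arrays against 104 and 80.0, and Cd3d, Cd3g, Cd247 and Cd2 stood at 1.64, 2.28, 2.32 and 1.58. Cd247 was below the lower limit in control replicate 2, and with 16 added to each signal it stood at 1.25. Tumoricidal replicate 2, with Cd3d at 397 against 22.8 and 20.8 in the other 2, was also the lowest tumoricidal array for most class II genes. Natural killer cell markers summed to 1075 to 2848 against 192 to 489, with Gzma at 2.82, Eomes at 2.58 and Klrk1 at 2.52. Eomes was below the lower limit in control replicate 2, and with 16 added to each signal it stood at 1.48. None of 7 T-cell and 5 natural killer cell markers was called. The part of other cells in the class II differences was not tested. Without tumoricidal replicate 2 the median difference of the member probe sets was 1.28. The groups were then apart with tumoricidal arrays higher at 24 of 25 member probe sets, against 22.2% of all.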

How the data were processed

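The authors deposited linear signal intensity per probe set for 5 Affymetrix arrays; per the labels' protocols biotinylated cRNA came from 6 µg of total RNA. The sources used here name no summary software or scaling. The mean of each array without the top and bottom 2% was 100.0, so values had been scaled.

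Arrays were scaled to a common median, since deposited medians differed by up to 1.47 times. The 64 control probe sets were removed, signals under the pooled 25th percentile (4.79) raised to it, and log2 taken. Of the rest, 3984 probe sets at that limit on all arrays were not tested, and 41053 were compared across the whole table with limma 3.58.1 (lmFit, eBayes, two-sided, Benjamini-Hochberg) in R 4.3.3, with no covariate. A p-value measures the spread between these arrays only, whose number limits precision. A gene's value is its single-symbol probe set with the highest mean log2. Gene symbols are those of the platform annotation. Clustering on spike-in controls (16 probe sets), cut at 2 clusters by choice, defined the batches, both with both groups. Promoter windows came from RefSeq tables (GRCm38.p6). The fit was tested on simulated data. Figures used matplotlib 3.10.9 in Python 3.11.15.

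The members, lists and tests were chosen with earlier results of these data known. Named besides the members were the 3 pathway genes per list with the largest absolute difference, the 2 brightest and 2 most different markers per cell type, the 6 genes nearest in profile, and Ifng, Cxcl9, Gbp2 and Irf1; any other list gene was picked with its values known. List genes with no named probe set tested are not analysed here. Alternatives covered scaling, lower limit, filter, variance model, blocks, probe set choice and each array left out.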

Additional observations from a re-analysis of the deposited data

How the results depend on the processing

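The differences of the 10 genes were positive in all 17 alternatives run for each, from 0.25 (H2-Ob) to 2.78 (H2-DMb2) on the log2 scale. Not all of these could differ: the level filter and the trended robust variance leave a difference unchanged. The replicate block gave the same differences as leaving out tumoricidal replicate 3. Scaling moved the median of all probe sets from 0.09 to 0.0016 with quantile normalization and to -0.11 with the deposited scaling, and that of the members from 1.34 to 1.03 and 1.11. At an unadjusted p under 0.05 the split of all probe sets into higher and lower was 2021 and 1259, 1723 and 1691 after quantile normalization, and 1172 and 2500 in the values as deposited. Groups were apart, tumoricidal higher, at 22 and 21 of the 25 member probe sets in these 2, against 10.4% and 7.53% of all.

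Calls depended on the settings, and the cause was not tested. Over all probe sets, 14 higher and 7 lower became 59 and 12 with 16 added to each signal, 48 and 12 with the lower limit at the 50th percentile, 194 and 28 above the median level, and 177 and 25 with a trended robust variance. Member calls in these 4 settings were 1, 1, 9 and 6 instead of 0, and calls of other pathway genes 2, 1, 7 and 7 instead of 0. The shares of all probe sets called higher in them were 0.131%, 0.18%, 0.945% and 0.431%, against 0.0341% in the main fit. Among the pathway genes called above the median level, Socs1 passed that filter only through the tumoricidal arrays. Its control signals were 12.7 and 10.2, below the median level of 21.5. With the batch as a block, limma called 0 probe sets higher and 0 lower (2631 and 1486 at an unadjusted p under 0.05), and leaving out each array in turn gave 0 to 0 in either direction. The replicate number as a block gave 0 and 0 as well. Deviations of same-numbered arrays from their group means correlated at 0.02 and -0.24. With 2 control arrays, in different batches, the control deviations mirror each other, so these correlations cannot decide whether arrays were paired.

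H2-DM minus the classical chains ran from 0.94 to 1.50 over 12 alternatives and Cd74 minus the classical chains from -0.38 to -0.24, with the same sign in each. The deposited scaling cancels within an array and could not move them. Quantile normalization moved H2-DO minus the classical chains to 0.37, Ciita minus the classical chains to 0.28 and H2-DM minus H2-DO to 0.86. Adding 16 turned the first 2 to -0.24 and -0.059 and moved the third to 1.38. H2-DO minus the classical chains was -0.061 without control replicate 2 and at most 0.32 over arrays left out. March8 turned to 0.0093 with the batch block, and, over arrays left out, lay between -0.66 (control replicate 1 left out) and 0.34 (control replicate 2), with 0.09 when tumoricidal replicate 1 was left out. Xbp1 turned to -0.039 after quantile normalization. At the 2 member probe sets with an array below the lower limit, 1 of H2-Ea and the one shared by H2-Ob and Gm20506, the values there are bounds.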
